A study of Saccharomyces cerevisiae with 12 samples.

Results

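The small nucleolar RNAs (snoRNAs) and spliceosomal small nuclear RNAs (snRNAs) of budding yeast were described in 12 RNA-seq libraries. They were taken by name, as the entries of the deposited expression tables whose gene name starts with snR and digits, and 81 of 7126 genes met that rule. By their known class 47 were box C/D snoRNAs, 29 were box H/ACA snoRNAs and 5 were snRNA genes. The U2 snRNA is listed as LSR1 and is not a member by name, so it is given only as a comparison. The length of each member was taken from its locus: 40 members were at least 150 bp long and 41 were shorter. The shorter members, of which 40 are box C/D snoRNAs and 1 is snR6, are reported apart, because the values of genes shorter than a sequenced fragment are inflated.

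The cells were wild-type BY4741 carrying either the control vector pBY011 (control cells) or pBY011-YOX1 (YOX1 cells). In the latter, galactose turns on a plasmid copy of YOX1 through the GAL1-10 promoter. The Yox1 protein is a homeodomain factor that represses genes of the cell cycle. Cultures in synthetic raffinose medium lacking uracil were sampled untreated (0 h), and at 2 h and 4 h after galactose (to 2%) and 200 mM hydroxyurea (HU), which inhibits ribonucleotide reductase and slows DNA replication, had been added together. Each of the 6 groups had 2 libraries, which the methods of the study call independent biological replicates. The effects of galactose and of HU on a change over time cannot be told apart, and only the comparison between vectors at 1 time separates YOX1 from the rest. Every group carries a plasmid, no group received HU alone, and the GAL1-10 promoter drives YOX1 far above its own level once galactose is present.

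Box C/D snoRNAs guide the methylation of ribose and box H/ACA snoRNAs guide the conversion of uridine to pseudouridine, mainly in ribosomal RNA, and a few snoRNAs are needed to cut the rRNA precursor. Each works inside a particle with 4 core proteins: Nop1 (the methyltransferase), Nop56, Nop58 and Snu13 for box C/D, and Cbf5 (the pseudouridine synthase), Gar1, Nhp2 and Nop10 for box H/ACA. The snRNAs U1, U2, U4, U5 and U6 form the spliceosome, with a ring of Sm proteins on the first 4 of these and of Lsm proteins on U6. Most of these RNAs are stable, so their level is set by slow turnover as well as by transcription.

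The sequences below are shown because they carry the class boxes or the base-pairing parts of the members described next. All were read from the RefSeq R64 genome (the sacCer3 sequence), in which all 81 members had the start and end given in the deposited tables. The first 60 bases of the U1 snRNA snR19 (chrXIV:230613-230672, minus strand) hold in capitals the bases that pair with the start of an intron. In the short form of the U5 snRNA, snR7-S (chrVII:939494-939672, minus strand), the capitals mark the loop that holds the exon ends. In the H/ACA snoRNAs snR31 (chrXV:841958-842182, minus strand), snR5 (chrXV:842403-842606, plus strand) and snR189 (chrIII:178610-178798, minus strand) the capitals mark the ACA nearest to the 3′ end. In the box C/D snoRNAs the capitals mark box C (TGATGA within the first 30 bases) and box D (the last CTGA within the last 30 bases). These are snR4 (chrV:424698-424883, plus strand), snR13 (chrIV:1402919-1403042, plus strand), snR24 (chrXIII:499984-500072, minus strand), snR38 (chrXI:283185-283279, plus strand), snR39 (chrVII:365163-365251, minus strand) and snR54 (chrXIII:163535-163620, minus strand). The exact letters of box C were not found in snR4 and snR24.
snR19: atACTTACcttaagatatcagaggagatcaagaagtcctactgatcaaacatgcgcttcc
snR7-S: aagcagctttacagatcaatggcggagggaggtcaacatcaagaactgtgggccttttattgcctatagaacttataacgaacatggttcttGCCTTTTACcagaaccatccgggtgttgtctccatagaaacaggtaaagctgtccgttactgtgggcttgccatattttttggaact
snR4: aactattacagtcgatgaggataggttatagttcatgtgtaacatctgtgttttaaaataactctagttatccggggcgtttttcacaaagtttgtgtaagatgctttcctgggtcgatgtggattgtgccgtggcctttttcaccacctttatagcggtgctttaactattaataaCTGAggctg
snR13: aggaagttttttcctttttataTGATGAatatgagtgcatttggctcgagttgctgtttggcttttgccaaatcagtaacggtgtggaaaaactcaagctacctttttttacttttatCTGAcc
snR24: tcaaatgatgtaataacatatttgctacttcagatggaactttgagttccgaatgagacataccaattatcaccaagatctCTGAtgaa
snR38: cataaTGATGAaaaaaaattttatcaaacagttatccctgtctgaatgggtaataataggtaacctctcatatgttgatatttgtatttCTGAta
snR39: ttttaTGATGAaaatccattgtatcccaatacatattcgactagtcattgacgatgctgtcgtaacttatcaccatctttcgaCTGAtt
snR54: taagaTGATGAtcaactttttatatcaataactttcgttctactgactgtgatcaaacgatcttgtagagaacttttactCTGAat
snR31: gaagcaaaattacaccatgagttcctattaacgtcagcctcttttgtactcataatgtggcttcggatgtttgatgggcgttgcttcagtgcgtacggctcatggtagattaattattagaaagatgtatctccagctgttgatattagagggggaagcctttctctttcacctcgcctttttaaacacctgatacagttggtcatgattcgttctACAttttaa
snR5: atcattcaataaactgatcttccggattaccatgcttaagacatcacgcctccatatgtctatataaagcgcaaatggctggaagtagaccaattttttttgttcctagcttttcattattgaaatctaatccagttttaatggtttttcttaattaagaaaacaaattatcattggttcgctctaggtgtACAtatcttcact
snR189: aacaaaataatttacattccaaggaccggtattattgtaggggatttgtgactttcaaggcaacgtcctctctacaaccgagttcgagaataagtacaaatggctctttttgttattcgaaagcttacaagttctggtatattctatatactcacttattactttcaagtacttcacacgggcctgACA

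The name rule used no sequence, so the boxes give a check of the classes. Box C and box D were both found in 37 of the 47 box C/D members (78.7%), in 0 of the 29 box H/ACA members and 0 of the 5 snRNAs, and in 10 of 6047 other genes (0.165%). An ACA within the last 10 bases was found in 18 of the 29 box H/ACA members (62.1%), in 7 of the 47 box C/D members (14.9%) and in 523 of the 6047 other genes (8.65%). In snR5 the nearest ACA stood further from the annotated end than this window reaches. The letters of the boxes are short, and a match describes these letters only.

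Of the 81 members, 61 start their own transcription unit, 8 lie in introns of protein-coding genes and 12 lie downstream in a polycistronic unit. In the window around the start (250 bases before to 50 after), the letters ANCCCTAA bound by Tbf1, a factor known to activate many yeast snoRNA genes, were found on either strand in 9 of the 61 units (14.8%), against 128 of 6350 other genes (2.02%). The 9 held 5 box H/ACA, 4 box C/D and 0 snRNA genes. The letters TTACCCG bound by Reb1 were found in 9 of 61 (14.8%), 7 of them box H/ACA genes, against 435 of 6350 (6.85%). The homeodomain core TAATTG, of the kind Yox1 binds, was found in 12 of 61 (19.7%) against 1593 of 6350 (25.1%). The Rap1 motif was not searched. These are matches of letters and not measured binding.

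Values are FPKM (fragments per kilobase of transcript, scaled by the mapped fragments of the library), divided here by a size factor per library, and changes are on the scale log2(FPKM + 1), which understates the change of low genes. All 81 members had a completed estimate in every library and all passed the minimum mean of 1 FPKM. YOX1 itself was 29.0 to 43.7 FPKM in the control libraries, 85.4 and 88.4 in the untreated YOX1 libraries and 2510 to 3794 in YOX1 cells after galactose. The labels require the rise after galactose. Before galactose the YOX1 libraries already lay above every control library, so the untreated YOX1 group was not at the control level of YOX1. The members made up 11.8% to 15.5% of the summed FPKM of a library without SCR1, the RNA of the signal recognition particle, which was listed at 0 in 1 library for want of a completed estimate. Bulk levels are relative: fewer cells of a kind and less RNA per cell cannot be told apart.

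The deposited intervals imply how many fragments stand behind a value, though less surely in members that overlap another gene. For snR17a, which overlaps IRC13, they gave 2256 to 2298 fragments and a median of 13.2 FPKM per fragment. The value for snR17b, of similar length and with no overlap, was 0.448. Members of at least 150 bp had implied medians over the 12 libraries of 36.2 to 109290 fragments, and 34 of the 40 had at least 100. Among the shorter members the median over members was 11.9 fragments, 29 of 41 had a median under 30, and 72.2% of their 492 values rested on fewer than 30 fragments. The classes overlapped: 3 of the shorter members, snR128, snR13 and snR40, had medians of at least 100 fragments, more than the longer snR14 and snR36 with 36.2 each. At 1 extreme, 1 fragment of snR59 (78 bp) was worth 66.0 FPKM, and at the other, 1 fragment of snR86 (1004 bp) was worth 0.0732 FPKM. Of the 265 values above 0 and under 30 in the shorter members that overlap no other gene, 217 (81.9%) lay within 0.05 of a whole number. Levels are compared here within a member and not between the length classes.

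A smaller share of the 81 members than of all genes was called over time, and most of the shorter members rested on few fragments. Calls were made with limma over 6887 genes at a threshold of 0.05 on the p adjusted by Benjamini and Hochberg. With the control vector at 2 h, 2 members were higher and 1 was lower than untreated, against 18.4% and 19.3% of all genes tested. At 4 h 9 members were higher and 1 lower, against 25.1% and 26%. With the YOX1 vector 1 was higher and 4 were lower at 2 h, against 21.6% and 22.2%, and 12 were higher and 2 lower at 4 h, against 26.4% and 27%. Of the 40 members of at least 150 bp, 4 were called higher and 0 lower at 4 h in control cells, and 8 and 2 in YOX1 cells. The 8 higher calls were near the share of the other genes of 150 to 600 bp given below, and the other counts were under it. The median log2 change of the 40 longer members was 0.00 and 0.08 in control cells at 2 h and 4 h, and -0.02 and 0.17 in YOX1 cells. Over the 1587 other genes of 150 to 600 bp it was -0.01, 0.02, -0.04 and 0.02 in the same order, and of those genes 315 were called higher and 303 lower at 4 h in control cells and 337 and 326 in YOX1 cells. The median of the longer members varied between replicates by 0.14 (SD, log2), and of these 4 changes only that of YOX1 cells at 4 h was larger. That median was 0.10 to 0.24 over the fits that left out 1 library, below the replicate spread without untreated YOX1 replicate 1 or 4 h YOX1 replicate 2, and it was 0.05 with no scaling and 0.26 under quantile normalization. Scaled on the longer members themselves it was -0.02, near 0 by construction. On values with no scaling between libraries the calls at 4 h were 7 higher and 5 lower in control cells and 6 and 2 in YOX1 cells, and the share of higher calls among all called genes went from 49.1% to 34.9% and from 49.4% to 36.6%. The 2 vectors share no libraries in these comparisons, while 2 h and 4 h share the untreated libraries.

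No member was called between the vectors in the limma fit at any time. Of the 81 members 0 were called at 0 h, where 0.0145% of all genes were higher and 0.0145% lower, 0 at 2 h (0.261% and 1.68%) and 0 at 4 h (1.92% and 4.31%). At an unadjusted p under 0.05 the members numbered 2 higher and 1 lower at 0 h, 1 and 0 at 2 h, and 2 and 1 at 4 h. The shares of all genes in this paragraph are for the adjusted threshold, and none is given for the unadjusted counts, which are not compared. Nor was any member called for a different change over time: 0 were called at 2 h (0.102% of all genes more positive with YOX1, 0.639% more negative) and 0 at 4 h (0.523% and 1.96%), with 4 and 1 and with 5 and 1 at an unadjusted p under 0.05. The medians of the longer members were -0.02, -0.04 and 0.02 between the vectors at 0 h, 2 h and 4 h. Each is smaller than the variation of the median between replicates.

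The calls over time were sensitive to single libraries. Of the 32 calls of a member in a comparison over time, 5 held in all 12 fits that left out 1 library: snR19, snR4, snR24 and snR77 at 4 h in control cells and snR19 at 4 h in YOX1 cells. The count in YOX1 cells at 4 h was 14, and it was 8 without untreated replicate 1, 22 without untreated replicate 2, 9 without 4 h replicate 1 and 6 without 4 h replicate 2. At 2 h the 5 calls in YOX1 cells became 2 and 12 without untreated replicates 1 and 2, 2 and 0 without the 2 h replicates, and 3 without either control replicate of 4 h. The 3 calls in control cells at 2 h became 1 and 0 without the 2 h replicates and 5 without either untreated YOX1 replicate. Untreated YOX1 replicate 1 stood lowest of the 12 libraries in the median of the shorter members, 0.46 below their mean on the log2 scale, and in the longer members it was 0.14 below, close to untreated control replicate 1.

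**Figure D1:**
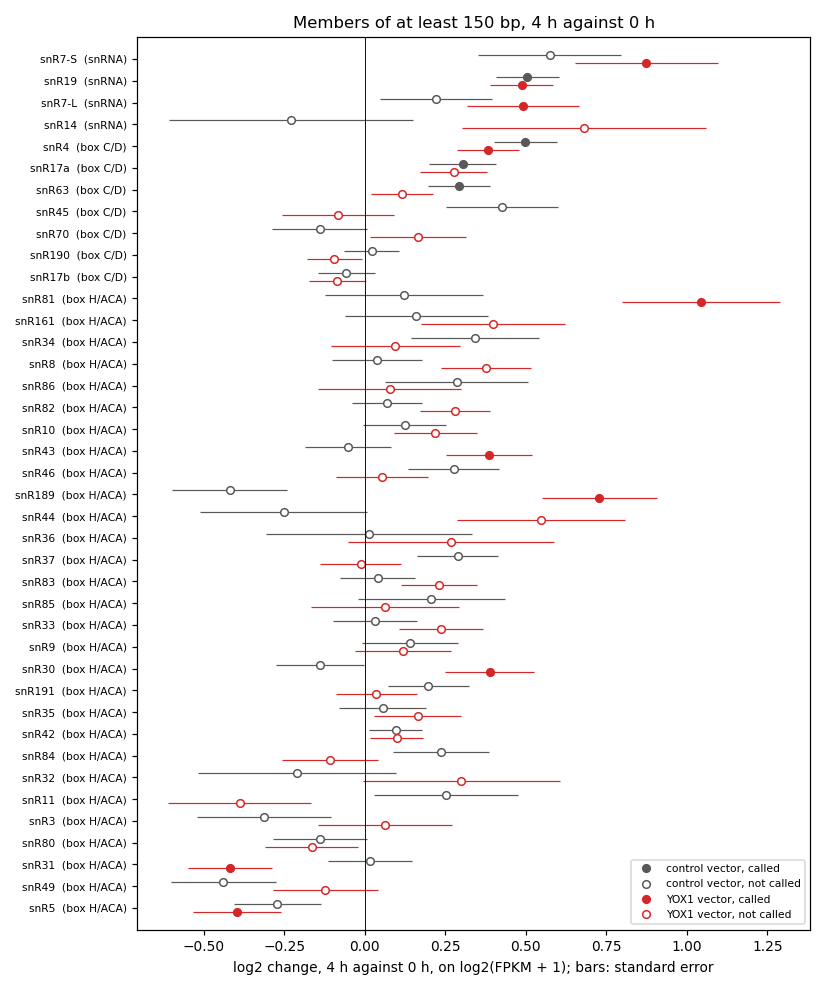
Log2 change from 0 h to 4 h on log2(FPKM + 1) for the 40 members of at least 150 bp, grouped by class, with control cells in grey and YOX1 cells in red. Filled points are called in the limma fit and bars are standard errors. Most points lie within 0.5 of 0, snR19 and snR4 are called to the right with both vectors, and snR5 and snR31 are called to the left in YOX1 cells.

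Among the spliceosomal snRNAs, U1 rose over time with both vectors. The level of snR19, the U1 snRNA that recognises the start of introns, was 13466 and 15096 in the untreated control libraries, 17179 and 18083 at 2 h and 20592 and 19858 at 4 h, and with the YOX1 vector 15006 and 13692 untreated, 17239 and 15285 at 2 h and 20526 and 19676 at 4 h. All 4 libraries of 4 h lay above the 4 untreated ones. The limma fit gave at 4 h a log2 change 0.50 ± 0.10 (SE), adjusted p = 0.00324 in control cells and a log2 change 0.49 ± 0.10 (SE), adjusted p = 0.0037 in YOX1 cells (Benjamini-Hochberg). At 2 h neither vector's libraries overlapped its untreated ones, and limma called the change in control cells (log2 change 0.31, adjusted p = 0.0406), while YOX1 cells gave 0.18 (adjusted p = 0.176). The call at 2 h was lost in 8 of the 12 fits that left out 1 library, and quantile normalization gave -0.05 at 2 h and 0.07 at 4 h in control cells and 0.28 in YOX1 cells at 4 h, none of them called.

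U5, which aligns the exon ends, occurs as a short and a long form with a different 3′ end. The short form snR7-S was 6845 and 9162 in the untreated control libraries, 9756 and 9602 at 2 h and 11783 and 11802 at 4 h, and with the YOX1 vector 6718 and 8757 untreated, 11890.4 and 11722 at 2 h and 11308 and 17489 at 4 h. Its libraries at 2 h and 4 h lay above the untreated ones with each vector, and the change was called in YOX1 cells at 4 h (log2 change 0.87 ± 0.22 (SE), adjusted p = 0.0112 by limma with Benjamini-Hochberg adjustment) but not in control cells (0.57, adjusted p = 0.0619). Without untreated YOX1 replicate 1 or 4 h YOX1 replicate 2 that call was lost, with the log2 change between 0.56 and 1.19 over the fits that left out 1 library. The long form snR7-L was called in the same comparison (0.49, adjusted p = 0.0439 by limma), and 10 of the 12 fits that left out 1 library lost it. The forms overlap over the whole short form, so the division of fragments between them was made by Cufflinks.

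The remaining snRNAs had few fragments. U4, snR14, which holds U6 until the spliceosome is activated, ranged from 91.9 FPKM in untreated YOX1 replicate 1 to 217 in 4 h control replicate 2 and rested on at most 48.7 fragments a library. At 4 h its libraries overlapped the untreated ones in control cells and lay above them in YOX1 cells, and no comparison called it. U6, snR6, which is transcribed by RNA polymerase III and takes part in catalysis, ranged from 129.6 to 306 FPKM on 8.0 to 22.8 fragments and was called in no comparison. For the comparison gene LSR1, the U2 snRNA that pairs with the branch site, the values were 18643 and 20010.0 in the untreated control libraries, 22782 and 23649 at 2 h and 31337 and 27460.4 at 4 h, and with the YOX1 vector 22767 and 19063 untreated, 24332 and 20648 at 2 h and 30485 and 27424 at 4 h. LSR1 rose at 4 h in control cells (0.60, adjusted p = 0.00557 by limma) and in YOX1 cells (0.47, adjusted p = 0.0163), and the second call was lost without untreated YOX1 replicate 2 or 4 h YOX1 replicate 1.

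**Figure D2:**
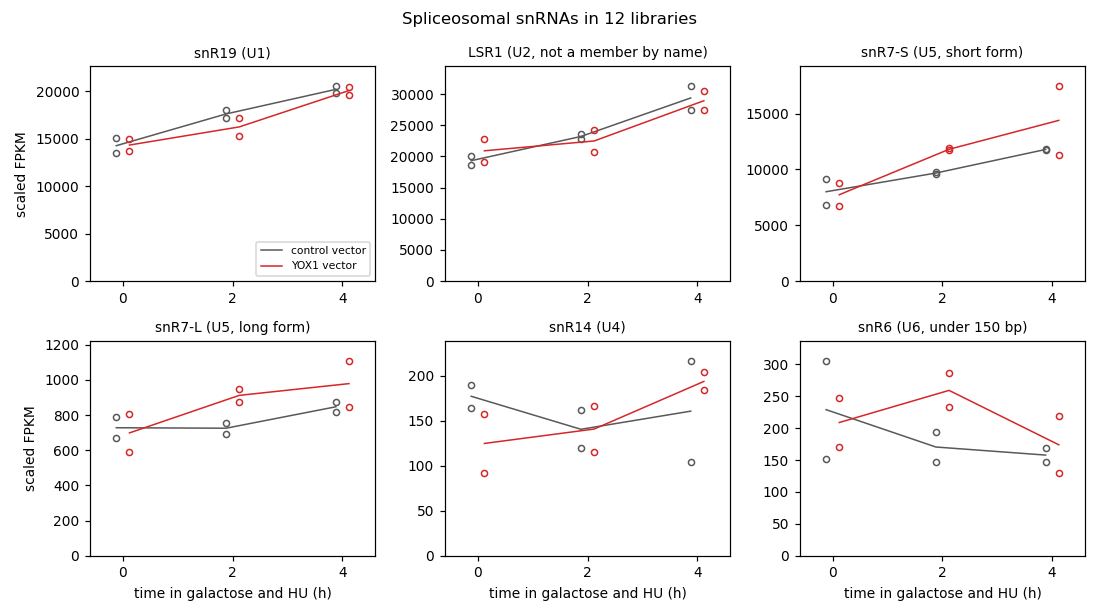
Scaled FPKM of the 5 spliceosomal snRNA members and of LSR1 at 0 h, 2 h and 4 h, each on an axis that starts at 0. Circles are libraries, lines join group means, and grey and red mark the control and the YOX1 vector. U1, U2 and the short form of U5 stand higher at 4 h than at 0 h with both vectors, and U4 and U6 are called in no comparison.

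Among noncoding RNAs outside the name rule, TLC1, the RNA of telomerase, rose in all 4 comparisons over time by 0.47, 0.74, 0.47 and 0.85 (adjusted p of 0.00166 to 4.42e-05 by limma), and the calls held in every fit that left out 1 library. The RNAs of the RNase P and RNase MRP particles, RPR1 and NME1, were called only at 4 h in YOX1 cells (0.57 and 0.55), where the RNase MRP call was lost without untreated replicate 1 or 4 h replicate 2.

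The snoRNAs needed for cutting the rRNA precursor mostly stayed near their untreated level. U3, the box C/D snoRNA that opens the assembly of the small subunit, has a major copy, snR17a, and a minor copy, snR17b. Their annotated loci are 490 and 462 bases long and match in 81.6% of 495 aligned positions. The alignment took each locus whole, so it does not give how alike the mature RNAs of the copies are. The level of snR17a was 26050.2 and 29362 in the untreated control libraries, 28522 and 29829.5 at 2 h and 36539 and 31925 at 4 h, and with the YOX1 vector 28732 and 28818 untreated, 28399 and 28267 at 2 h and 33333 and 36442 at 4 h. It was called at 4 h in control cells (log2 change 0.30 ± 0.10 (SE), adjusted p = 0.0392 by limma with Benjamini-Hochberg adjustment), and it changed by 0.28 in YOX1 cells (adjusted p = 0.0537). The control call was lost in 8 of the 12 fits that left out 1 library, with changes of 0.21 to 0.40. The minor copy snR17b was 2604 and 2805 in the untreated control libraries, 2339.7 and 2462 at 2 h and 2762 and 2442 at 4 h, and with the YOX1 vector 2661 and 2872 untreated, 2278 and 2256 at 2 h and 2456 and 2764 at 4 h. It was called lower at 2 h in YOX1 cells (-0.29, adjusted p = 0.0316 by limma; lost without untreated replicate 2 or either 2 h replicate) and was near its untreated level at 4 h with both vectors.

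The proportion of the U3 copies separated the times more clearly than either copy alone. The ratio of snR17a to snR17b within a library, which no scaling between libraries can change, was 10 to 10.8 in the 4 untreated libraries, 12.1 to 12.5 in the 4 libraries of 2 h and 13.1 to 13.6 in the 4 libraries of 4 h. The times did not overlap. The vectors overlapped at 0 h and 4 h, and at 2 h both YOX1 libraries lay above both control ones. IRC13, which overlaps the end of snR17a, was 0 to 4.81 FPKM and so took a small part of the locus, and the methods name default settings of TopHat2 and Cufflinks, which decided how reads shared by the copies were placed. The part of that placement in the ratio was not tested. The ratio of the U5 forms, snR7-S to snR7-L, was 10.2 to 11.6 untreated, 12.5 to 13.8 at 2 h and 13.3 to 15.8 at 4 h, so that it too stood higher after treatment, with some overlap between 2 h and 4 h. The ratios were chosen after the levels had been seen and are given with no test.

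**Figure D3:**
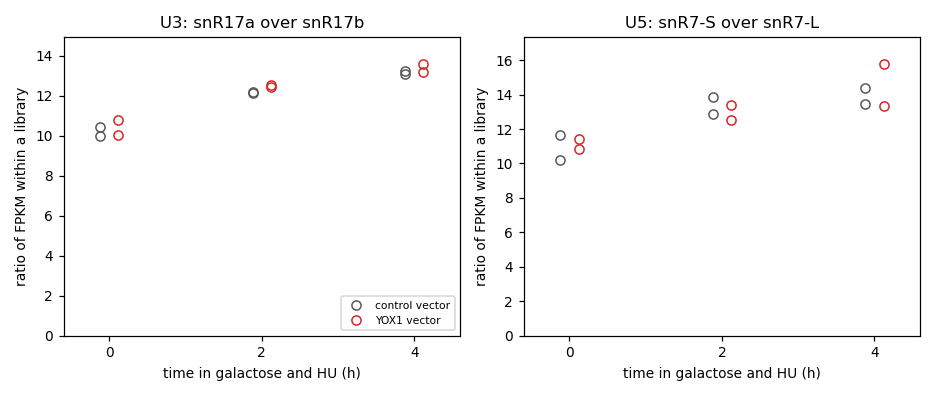
Ratio of FPKM within each library for the copies of U3 (snR17a over snR17b) and the forms of U5 (snR7-S over snR7-L) at 0 h, 2 h and 4 h; each circle is a library, grey for the control and red for the YOX1 vector, and the axes start at 0. The U3 ratio lies between 10 and 10.8 in untreated libraries and reaches at most 13.6 at 4 h with little spread within a time.

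Of the other snoRNAs of rRNA cleavage, only snR30 was called over time. The essential H/ACA snoRNA snR30 was 15522 and 14942 in the untreated control libraries, 15069 and 14699.7 at 2 h and 12862 and 14887 at 4 h, and with the YOX1 vector 10826 and 14596 untreated, 14208 and 14251 at 2 h and 16663 and 16235 at 4 h. It was called at 4 h in YOX1 cells (log2 change 0.39, adjusted p = 0.0441 by limma), and its untreated replicate 1 was the lowest of all 12 libraries. Without that library the change was the smallest of the fits that left out 1 library, 0.17, and the call was lost in 9 of the 12. The H/ACA snoRNA snR10 ranged from 10929 to 15750.1 FPKM and U14, the box C/D snoRNA snR128 of 126 bp, from 3783 to 7582, and neither was called in any comparison. The RNA snR190, which is cut from the same precursor as U14, ranged only from 9939 to 11800.3 and changed by -0.15 to 0.02 over time.

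Among the other box C/D snoRNAs of at least 150 bp, snR4 had the steadiest change. It guides the acetylation of the small subunit rRNA by Kre33 and its level was 5915 and 6715 in the untreated control libraries, 6706 and 7699.9 at 2 h and 9399 and 8440.2 at 4 h, and with the YOX1 vector 6564 and 6401 untreated, 6816 and 6639.6 at 2 h and 8482 and 8418 at 4 h. At 4 h all 4 libraries lay above the 8 earlier ones, and limma with Benjamini-Hochberg adjustment called it in control cells (log2 change 0.50 ± 0.10 (SE), adjusted p = 0.00321) and in YOX1 cells (log2 change 0.38 ± 0.10 (SE), adjusted p = 0.0109). The control call held in all alternatives and all fits that left out 1 library, while the YOX1 call was lost without 4 h replicate 1 (adjusted p = 0.0515). The other known guide of rRNA acetylation, snR45, changed by 0.43 and -0.08 at 4 h with the control and the YOX1 vector and was called in neither (adjusted p = 0.0725 and 0.718). A methylation guide of the large subunit rRNA, snR63, rose at 4 h in control cells (0.29, adjusted p = 0.0342 by limma), a call that 6 of the 12 fits without 1 library lost, and it changed by 0.12 in YOX1 cells.

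The 29 box H/ACA snoRNAs had 0 calls in control cells in the limma fit. Of all genes 18.4% were called higher and 19.3% lower there at 2 h, and 25.1% and 26% at 4 h. In the same fit 0 members higher and 2 lower passed an unadjusted p of 0.05 at each time, a cut with no share of all genes given here. With the YOX1 vector 1 was called higher and 1 lower at 2 h, and 4 higher and 2 lower at 4 h. Of all genes 21.6% were called higher and 22.2% lower at 2 h, and 26.4% and 27% at 4 h, which are larger shares than in this class. The largest rise among members of at least 150 bp was that of snR81, which guides pseudouridine formation in both rRNA and the U2 snRNA. Its level was 86.5 and 134 in the untreated control libraries, 154 and 135 at 2 h and 123 and 112 at 4 h, and with the YOX1 vector 78.7 and 119 untreated, 157 and 161 at 2 h and 177 and 227 at 4 h, on 37.7 to 128.4 fragments. With the YOX1 vector it changed by 0.71 at 2 h and by 1.04 ± 0.25 (SE) at 4 h (adjusted p = 0.0476 and 0.00789 by limma), and without 4 h replicate 2 the second missed the threshold (adjusted p = 0.0557, with changes of 0.75 to 1.33 over all fits that left out 1 library), while the first was lost in 9 of the 12 such fits. With the control vector the changes were 0.42 and 0.12, and the difference between the vectors in the change to 4 h was 0.92 (adjusted p = 0.26), not called.

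For snR189, which guides pseudouridine formation in both ribosomal subunits, the vectors moved apart in values. Its levels were 363 and 396 in the untreated control libraries, 352 and 318 at 2 h and 281 and 286 at 4 h, and with the YOX1 vector 205 and 301 untreated, 378 and 315 at 2 h and 376 and 451 at 4 h. Untreated, the YOX1 libraries lay below the control ones, and at 4 h they lay above them. The change to 4 h in YOX1 cells was called (log2 change 0.73 ± 0.18 (SE), adjusted p = 0.00961 by limma with Benjamini-Hochberg adjustment), it missed the threshold without 4 h replicate 2 (adjusted p = 0.0652, with changes of 0.45 to 1.00 over all fits that left out 1 library), and in control cells it was -0.42 (adjusted p = 0.0837). The difference between those changes was 1.15 ± 0.25 (SE) with an adjusted p of 0.0686, the smallest of any member of at least 150 bp and above the threshold. The guide snR43 rose in YOX1 cells at 4 h (0.39, adjusted p = 0.0394 by limma), a call lost in 5 of the 12 fits without 1 library.

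The only H/ACA members called lower were snR31 and snR5, which are neighbours on chromosome XV and are transcribed away from each other. The 220 bases between their starts (chrXV:842183-842402, plus strand, as read towards snR5) hold 1 match to the Tbf1 letters, in capitals, which is counted for both genes in the promoter windows above.
snR31-snR5: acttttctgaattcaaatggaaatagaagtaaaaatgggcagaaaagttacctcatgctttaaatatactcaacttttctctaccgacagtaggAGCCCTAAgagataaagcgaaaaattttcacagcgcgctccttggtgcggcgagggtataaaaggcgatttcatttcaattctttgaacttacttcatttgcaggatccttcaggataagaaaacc
The level of snR31, a guide of small subunit pseudouridine formation, was 1647 and 1873 in the untreated control libraries, 1478 and 1871 at 2 h and 1948 and 1622 at 4 h, and with the YOX1 vector 2164 and 2096 untreated, 1657 and 1517 at 2 h and 1571 and 1616 at 4 h. With the YOX1 vector all 4 treated libraries lay below both untreated ones, and limma with Benjamini-Hochberg adjustment gave -0.43 (adjusted p = 0.0311) at 2 h and -0.42 (adjusted p = 0.0275) at 4 h. With the control vector snR31 changed by -0.08 and 0.02, with overlapping libraries. Both untreated YOX1 libraries lay above every control library, and the treated YOX1 libraries lay within the control range of 1478 to 1948. The called falls thus start from a high untreated level in YOX1 cells. Its neighbour snR5, a guide for the large subunit, was 2579 and 3316 in the untreated control libraries, 2272 and 2314 at 2 h and 2585 and 2274 at 4 h, and with the YOX1 vector 2731 and 3112 untreated, 2443 and 2089.6 at 2 h and 2167 and 2266 at 4 h. It changed by -0.35 and -0.27 in control cells and by -0.37 and -0.40 in YOX1 cells, of which the last was called (adjusted p = 0.0392). Both calls at 4 h were lost without either 4 h YOX1 replicate and without untreated YOX1 replicate 2, that of snR31 also without replicate 1, and that of snR5 also without either 2 h control replicate. The vectors shared the direction in snR5 and not in snR31, and the difference between vectors was called in neither (adjusted p = 0.779 and 0.311 at 4 h). Other H/ACA members also stood lower in YOX1 cells without being called. There snR11 changed by -0.44 at 2 h and -0.39 at 4 h (adjusted p = 0.144 and 0.178 by limma) and snR80 by -0.41 at 2 h (adjusted p = 0.0523), each with no overlap between libraries.

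**Figure D4:**
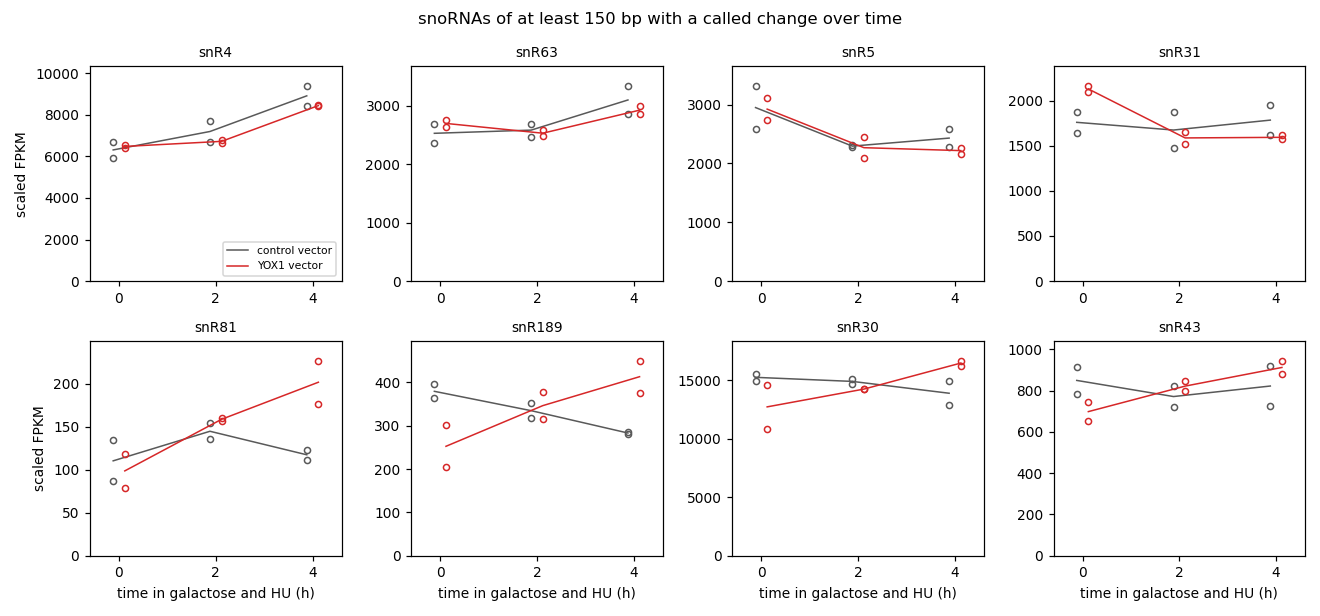
Scaled FPKM of 8 snoRNAs of at least 150 bp with a called change over time, at 0 h, 2 h and 4 h. Circles are libraries, lines join group means, grey marks the control vector and red the YOX1 vector, and each axis starts at 0. At 4 h snR4 stands above its earlier levels with both vectors, snR81 and snR189 stand highest in YOX1 cells, and snR31 lies below its untreated level at 2 h and 4 h in YOX1 cells.

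The 8 intronic snoRNAs are released from the introns of protein-coding host genes after splicing, and at 4 h most had a log2 change of the opposite sign to that of their host. At 4 h 3 of the 8 were called higher in control cells and 2 in YOX1 cells, and 0 were called lower, against 25.1% and 26.4% of all genes called higher, so the count in YOX1 cells was at the share of all genes. Their median log2 change was 0.72 and 0.96. All but snR44 and snR191 are under 150 bp, and snR59 and snR54 rested on at most 9.6 fragments a library. Over the 41 members under 150 bp the median was 0.18 in control cells and 0.39 in YOX1 cells. Of the 8 host genes 6 were called lower and 1 higher in control cells, and 4 lower and 2 higher in YOX1 cells, with medians of -0.52 and -0.44. Of all genes 26% were called lower in control cells and 27% in YOX1 cells. Over all genes tested the median was 0.00 and 0.01.

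The intronic member called most often was snR24, a methylation guide of the large subunit rRNA in the intron of ASC1, which encodes a small subunit ribosomal protein. The level of snR24 was 246 and 111 in the untreated control libraries, 428 and 555 at 2 h and 856 and 715 at 4 h, and with the YOX1 vector 288 and 257 untreated, 416 and 267 at 2 h and 818 and 667 at 4 h, on 3.0 to 21.0 fragments. The 4 libraries of 4 h lay above the other 8. Limma with Benjamini-Hochberg adjustment gave 2.23 ± 0.36 (SE) in control cells (adjusted p = 0.00127), which held in all alternatives, and 1.44 ± 0.36 in YOX1 cells (adjusted p = 0.0107), lost without untreated replicate 2 or 4 h replicate 1. The level of ASC1 was 1865 and 1646 untreated and 817 and 938 at 4 h in control cells, and 1346 and 1704 and 882 and 821 in YOX1 cells. It fell by 1.00 and 0.83 on the log2 scale (adjusted p = 0.000392 and 0.000973).

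The pairs of snR38 and snR39 were opposed in sign too, each with a called snoRNA in 1 comparison. The guide snR38 in TEF4, the gene of a translation elongation factor, was 285 and 287 untreated and 694 and 492 at 4 h in control cells (1.03, adjusted p = 0.0191 by limma), and changed by 0.26 in YOX1 cells, while TEF4 fell by 0.63 and 0.59. The guide snR39 in RPL7A, a large subunit protein gene, was 742 and 1073 untreated and 2069 and 1963 at 4 h in YOX1 cells (1.17, adjusted p = 0.0079), and changed by 0.42 in control cells, while RPL7A fell by 0.68 and 0.61. Without 1 library the snR38 call was lost in 3 of 12 fits and the snR39 call in 1, the latter without untreated YOX1 replicate 1. The guide snR59 in RPL7B and snR18 in EFB1 were called in no comparison, and snR54 in IMD4, called higher at 4 h in control cells (adjusted p = 0.0316, lost without either 4 h replicate), rested on 0 to 7.0 fragments and on 0 in an untreated control library.

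The longer intronic members, both box H/ACA, were called in no comparison. The H/ACA snoRNA snR44 in RPS22B changed by -0.25 and 0.55 at 4 h with the control and the YOX1 vector, and snR191 in NOG2 by 0.20 and 0.04. NOG2, which encodes a GTPase of large subunit assembly, rose by 1.18 and 1.10 (adjusted p = 6.62e-06 and 9.05e-06 by limma). Fragments of the unspliced host RNA also cover an intronic snoRNA, and whether they had a part in the values was not tested. DBR1, the debranching enzyme that opens the excised intron, fell by 0.31 and 0.37 at 4 h (adjusted p = 0.00476 and 0.00174).

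**Figure D5:**
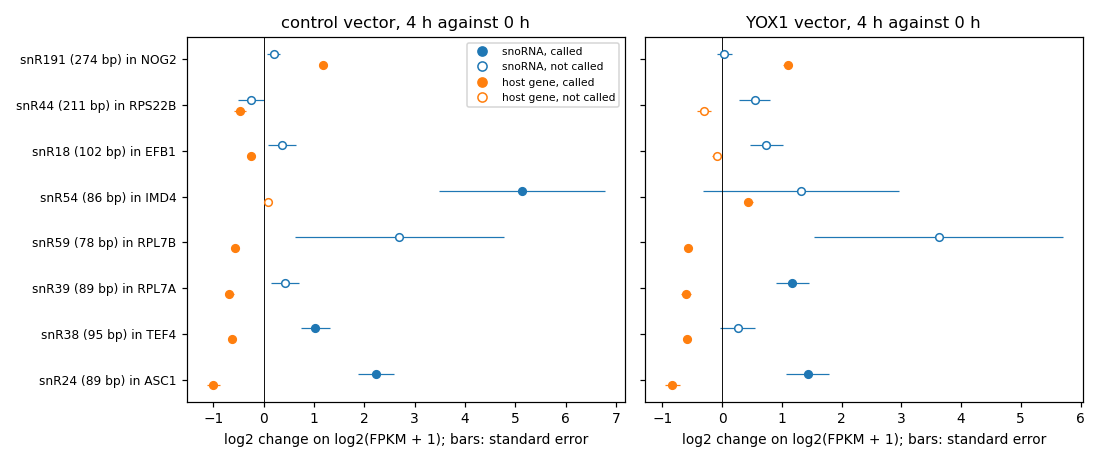
Log2 change from 0 h to 4 h on log2(FPKM + 1) of the 8 intronic snoRNAs (blue) and their host genes (orange) in control cells and the YOX1 vector. Filled points are called by limma and bars are standard errors. The host genes ASC1, TEF4, RPL7A and RPL7B are called lower in both panels, while the snoRNAs that are called lie to the right of 0, and the shortest members have the widest bars.

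Of the 17 members in polycistronic units, which RNase III cuts apart, 2 were called higher at 4 h in control cells and 1 in YOX1 cells, against 25.1% and 26.4% of all genes. At 2 h 1 was called lower in control cells and 2 in YOX1 cells, against 19.3% and 22.2% of all genes. In the unit of 7 box C/D snoRNAs from snR78 to snR72, snR77 rose at 4 h with both vectors, from 1328 and 1358 to 2388 and 1953 in control cells (log2 change 0.68 ± 0.11 (SE), adjusted p = 0.00119 by limma with Benjamini-Hochberg adjustment, held in all alternatives) and from 1595 and 1660.4 to 1963 and 2299 in YOX1 cells (0.38, adjusted p = 0.0184, lost without untreated replicate 1 or 4 h replicate 2). Of its neighbours, snR74 was listed at 0 in both untreated control libraries and at 85.3 and 291 FPKM at 4 h (adjusted p = 0.0197), which rests on at most 7.0 fragments, and snR72 was called lower at 2 h in control cells on 1.0 fragment in each library of 2 h. The call of snR73, lower at 2 h in YOX1 cells (-1.39, adjusted p = 0.0148), was lost without untreated replicate 1 or 2 h replicate 2.

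Among the other members under 150 bp, snR13 had the most fragments of any called one. This methylation guide was 3758 and 4229.7 in the untreated control libraries, 2698 and 2556 at 2 h and 2163 and 2187 at 4 h, and with the YOX1 vector 2349.8 and 4081 untreated, 2581 and 2306 at 2 h and 2404 and 3213 at 4 h, on 171.7 to 404 fragments. The control libraries of 2 h and 4 h all lay below the untreated ones, and 4 h was called (log2 change -0.87 ± 0.24 (SE), adjusted p = 0.0169 by limma with Benjamini-Hochberg adjustment), lost without untreated replicate 2 or either 4 h replicate. With the YOX1 vector its untreated libraries were far apart, and it changed by -0.16 at 4 h. The guide snR47 was called higher at 4 h in YOX1 cells (0.78, adjusted p = 0.0359), a call lost in 9 of the 12 fits without 1 library, and snR51, of the unit with snR41 and snR70, was called lower at 2 h with that vector (-1.17, adjusted p = 0.0492), lost in 8. Over the 41 shorter members the median log2 change at 4 h was 0.18 in control cells and 0.39 in YOX1 cells, and the shorter members of single libraries deviated from their mean over the 12 libraries by a median of -0.46 to 0.24.

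The genes for the proteins of these particles were counted in the same fit. Of the 4 core proteins of box C/D particles 0 were called higher in any comparison over time and 2 were called lower at 4 h in YOX1 cells, NOP56 by -0.51 and NOP58 by -0.22. Of the 4 box H/ACA core proteins 0 were called higher and 2 lower in that comparison, GAR1 by -0.34 and CBF5 by -0.33. In control cells 1 was called lower in each list at 4 h, NOP56 (-0.35) and GAR1 (-0.30). At 2 h the order was the other way round: 2 of each list were called lower in control cells, NOP56 (-0.30), NOP58 (-0.36), CBF5 (-0.31) and GAR1 (-0.41), and in YOX1 cells NOP56 alone (-0.28). Of all genes 19.3% were called lower in control cells and 22.2% in YOX1 cells at 2 h, and 26% and 27% at 4 h. The count of 1 in each list at 4 h in control cells was thus near the share of all genes. In the limma fit 0 core protein genes were called between the vectors or for a different change over time, and at an unadjusted p under 0.05 only 1 was higher with YOX1 at 2 h and 1 lower at 4 h. Few of all genes were called there too, with 4.31% lower at 4 h as the largest share, and no share is given for the unadjusted counts. The GAR1 calls at 4 h were lost in 4 of the 12 fits without 1 library in control cells and in 3 in YOX1 cells.

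Of the 10 assembly factors, 4 were called higher and 2 lower at 4 h in control cells and 5 and 2 in YOX1 cells. Of all genes 25.1% were higher and 26% lower in control cells and 26.4% and 27% in YOX1 cells, so the lower calls were near the share of all genes, and the same shares apply to the lists that follow. The H/ACA factors SHQ1 and NAF1, which act on Cbf5 before the RNA is bound, rose by 1.11 and 1.01 in control cells and by 1.09 and 1.20 in YOX1 cells. The box C/D factors BCD1 and HIT1 rose by 0.96 and 0.55 and by 0.91 and 0.80 (adjusted p of 0.00094 or less for these 8 values by limma with Benjamini-Hochberg adjustment). The ATPase genes RVB1 and RVB2, whose products serve many complexes, fell by 0.23 and 0.24 in control cells and by 0.58 and 0.31 in YOX1 cells. RVB1 was the 1 gene of the particle and assembly lists called between the vectors: at 2 h 103 and 99.5 with the control and 72.8 and 78.5 in YOX1 cells (-0.42, adjusted p = 0.00449), and at 4 h 91 and 93.3 and 70.5 and 68.9 (-0.40, adjusted p = 0.0028).

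Of the 12 processing factors 5 were called higher and 1 lower at 4 h in control cells and 4 and 1 in YOX1 cells, the higher calls in YOX1 cells again not far from the 26.4% of all genes. RNT1, the RNase III that cuts the precursors of many of the members, rose by 0.54 and 1.04 at 2 h and 4 h in control cells and by 0.67 and 0.94 in YOX1 cells, with no overlap between libraries. At 4 h it was lower with the YOX1 than in control cells (-0.21, adjusted p = 0.0253 by limma), a call lost without any library of 4 h or any untreated control library. Of the 13 Sm and Lsm protein genes tested 1 was called higher and 3 lower at 4 h in control cells and 2 and 4 in YOX1 cells, with the lower calls near the 26% and 27% of all genes. SMD2 rose by 0.95 and 0.87, LSM7 fell by 0.34 and 0.65, and LSM8 was near 0 in all libraries, with at most 0.455 FPKM. Of the 12 other snRNP protein genes 4 rose and 3 fell, and 3 rose and 3 fell. The U1 proteins SNP1 and MUD1 were among them in opposite directions (0.53 and -0.50 in control cells at 4 h), and the U2 protein LEA1 rose (0.36 and 0.58).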

How the data were processed

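RNA was sequenced after rRNA removal (RiboZero kit, TruSeq RNA v2 libraries, which do not mark strand) in 12 libraries. Per the labels and the methods, the authors aligned reads to sacCer3 with TopHat2 and deposited FPKM estimated per gene and library by Cufflinks and Cuffdiff. FPKM are not counts, so no count test was used. The deposited confidence interval was read as 2 SDs to each side to obtain implied fragments. FPKM were divided by median-ratio size factors (0.932 to 1.07, from 6585 genes), log2(FPKM + 1) was taken, genes under a mean of 1 FPKM were left out, and limma 3.58.1 (R 4.3.3) was fitted to 6 groups with 6 residual degrees of freedom (two-sided, Benjamini-Hochberg over 6887 genes). The fit was tested on simulated data.

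The members and gene lists were chosen with earlier results of these data known. Members were named by a rule: the snRNAs, the rRNA cleavage snoRNAs, the intronic members and the largest called changes. The last were, per comparison, the 3 largest non-overlapping called changes in each direction among members of at least 150 bp. Levels in every group were given for only part of the members so named, and for the rest ranges, changes, calls or the levels of some groups. Other members were chosen after their values were seen. Alternatives changed the pseudocount, filter, scaling, libraries fitted, replicate block, empirical Bayes settings and short genes. Rap1 sites were not searched.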

Additional observations from a re-analysis of the deposited data

Results flagged for a closer look

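Over all genes 0.523% were called more positive and 1.96% more negative with YOX1 in the change to 4 h. Among the genes followed through the alternative fits, RVB1, an ATPase gene of snoRNP assembly, was the only one called for such a difference between the vectors. Its change from 0 h to 4 h was more negative in YOX1 cells than in control cells by -0.35 on the log2 scale (adjusted p = 0.0481 by limma with Benjamini-Hochberg adjustment). The call was lost in all 12 fits that left out 1 library and in 9 of the 13 other settings, with the sign kept.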

How the results depend on the processing

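Calls of members in YOX1 cells at 2 h (5) became 3 with no filter, 8 when scaled on the longer members, 9 under quantile normalization, 3 with only the libraries compared and 3 with the trend off. Those in YOX1 cells at 4 h (14) became 8 with no scaling and 9 when scaled on the longer members (5 higher and 4 lower). Those in control cells at 2 h (3) became 5 under quantile normalization and 5 with only the libraries compared, and at 4 h (10) they became 6 with genes under 150 bp left out. Between the vectors, 1 member was called at 4 h with only the libraries compared, and 1 in the difference of the changes to 4 h under quantile normalization and also with genes under 150 bp left out. Quantile normalization turned the sign of snR19 at 2 h in control cells (-0.048) and of EFB1 at 4 h in control cells (0.0048) and at 2 h in YOX1 cells (0.047). Without scaling the median of all genes at 4 h was -0.11 in control cells and -0.09 in YOX1 cells, and when scaled on the longer members -0.10 and -0.16; the share of higher calls among all genes was then 36.5% and 28.8%. Between the vectors at 4 h that share was 30.8%, 47.2% with no scaling and 13.5% when scaled on the longer members.

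Leaving out 1 library gave 0 to 5 calls in control cells at 2 h, 8 to 14 at 4 h, 0 to 12 in YOX1 cells at 2 h and 6 to 22 at 4 h. Between the vectors it gave 0 to 1 at 0 h, 0 at 2 h and 0 to 2 at 4 h, and 0 to 1 and 0 to 3 for the differences in change to 2 h and 4 h. Of the 32 member calls 9 held in every setting other than leaving out a library, and 3 held in all. With a replicate block the counts were 3 and 11 in control cells, 7 and 16 in YOX1 cells and 0 elsewhere. The labels do not say that replicate numbers mark a shared day or culture. Over 15 pairs of groups the correlation of deviations between same-numbered libraries was -0.12 to 0.42 and over 0.1 in 5, highest among YOX1 cells at 2 h and both vectors at 4 h (0.29 to 0.42), so the numbers were not taken to pair all samples. The cause of these differences was not tested. Changes of short members rest on few fragments.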
